A study of Mus musculus with 9 samples.

Results

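Metalloproteinases and their inhibitors were followed in mouse aorta. The set holds every gene whose symbol begins with Mmp, Adam, Adamts or Timp followed by a number and that has at least 1 probe set paired with that gene alone. It came to 65 genes of the 18193 measured, with 116 probe sets. There were 18 Mmp genes, 28 Adam genes, 15 Adamts genes and 4 Timp genes. Each gene is represented by its brightest probe set over all 9 arrays, and its other probe sets were used to check the direction.

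RNA came from aortae of male mice labelled BMAL-/- (4 arrays, F02, F03, F05 and F08) or BMAL+/+ (5 arrays, F01, F04, F07, F09 and F10), 1 array per sample. The design text calls the samples biological replicates. BMAL is the product of Arntl, a transcription factor of the positive arm of the circadian clock, and the comparison asks which aortic transcripts differ in abundance between the strains. All mice were partially backcrossed onto C57Bl/6J, were kept for at least 2 weeks in a cycle with 12 h of light, then spent at least 30 h in constant darkness and were killed at ZT14. No age is given in the labels, and the deletion is not described as limited to a cell type. Vessels were perfused through the heart before dissection, and whole pieces of aorta were used.

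Metalloproteinases are zinc-dependent enzymes. Matrix metalloproteinases (Mmp) cut collagen, elastin and other matrix proteins, the membrane-bound Adam proteases release the outer parts of receptors and growth factors, and the secreted Adamts proteases cut proteoglycans and procollagens. The tissue inhibitors of metalloproteinases (Timp) bind the active site and hold these enzymes in check, and in the artery wall this balance is known for its role in remodelling, aneurysm and plaque stability.

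The labels of 3 arrays conflict with other information. F01 is BMAL+/+ by its title and strain and BMAL-/- by its source name. For F04 and F05 the conflict is with clock transcripts. The arrays labelled BMAL-/- read 5.87, 6.22, 2.77 and 6.05 (log2) for Arntl on F02, F03, F05 and F08, and those labelled BMAL+/+ read 2.76, 6.67, 2.79, 2.82 and 2.74 on F01, F04, F07, F09 and F10. A probe set outside the deleted part of a gene does not check a label, and the labels do not say where this one lies. Nr1d2, a repressor driven by the clock, read 5.08, 5.89, 11.21 and 5.48 on the arrays labelled BMAL-/-, against 11.69, 5.81, 11.27, 10.39 and 11.09 on those labelled BMAL+/+. In both transcripts F05 lay with most arrays labelled BMAL+/+ and F04 with most arrays labelled BMAL-/-. Results are therefore given for all 9 arrays as labelled and for 7 arrays without F04 and F05, which leaves 3 labelled BMAL-/- and 4 labelled BMAL+/+. The choice of the arrays left out was made on clock transcripts, after their values had been seen.

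Values are on a log2 scale, and every difference is BMAL-/- minus BMAL+/+. Array medians lay between 3.13 and 3.24, and transcripts near background gather at a floor between about 2 and 3, so a mean of at least 4 over the 9 arrays was taken as above the floor. By this measure 26 members were above it, alongside 9699 of all genes, and 39 members and 8494 of all genes were below it. The 26 are Mmp2, Mmp3, Mmp9, Mmp14, Mmp17 and Mmp23, 9 Adam genes, 7 Adamts genes and all 4 Timp genes. Below the floor, 35 members reached 4 on no array, and 32 varied by less than 0.5 over the 9 arrays. The neutrophil collagenase Mmp8 lay between 2.08 and 2.15 on all 9 arrays, the macrophage elastase Mmp12 between 2.47 and 2.61, and the collagenase Mmp13 between 2.75 and 3.29. For such genes the arrays give no measurable level.

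No member passed the test at an adjusted p of 0.05 in either comparison. With all 9 arrays 0 of 116 member probe sets passed, and the background was 0% of 45037 probe sets. With 7 arrays 0 of 116 passed, and the background was 0.00888%, or 4 probe sets. The smallest adjusted p of a member was 0.37 with 9 arrays and 0.0858 with 7 arrays. The array F08 weighs on this: without it, with F02 and F03 alone left in BMAL-/-, 31 of the 65 members (47.7%) had an adjusted p under 0.05, but so did 31.3% of all 18193 genes. Of these members, 23 were below the floor, or 59.0% of the 39 against 52.7% of all genes there, and 8 were above it, or 30.8% of the 26 against 12.5% of all genes there. F02 and F03 are the arrays with the highest medians (3.24 each) and the lowest smooth muscle marker means. Differences of the 8 above the floor were then -1.98 for Timp3, -1.20 for Timp2, 1.14 for Timp4, -1.70 for Mmp17, -1.43 for Adamts1, -0.58 for Adamts5, -1.02 for Adamts10 and 0.81 for Adam19. At an unadjusted p under 0.05, 1 of the 26 members above the floor was higher in BMAL-/- and 1 was lower with 9 arrays, or 3.85% each, against backgrounds of 0.784% and 1.2%. With 7 arrays 5 members were higher and 5 were lower, or 19.2% each, against backgrounds of 7.67% and 7.37% of the 9699 genes. The 5 higher members were Adam19, Mmp14, Mmp9, Adamts12 and Timp4, and the 5 lower ones were Timp3, Timp2, Adamts10, Adamts1 and Mmp17. Mmp9 is above the floor only through F02, F08 and F04, where it is high, so with F04 left out it was bound to differ. Without Mmp9, 4 of 25 members were higher with 7 arrays, or 16%. With members this few, a share above the background rests on a handful of genes.

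Over the 26 members the median difference was 0.10 with 9 arrays and 0.10 with 7 arrays, against 0.01 and 0.02 over all genes above the floor. With 7 arrays 14 members had a positive difference and 12 a negative one. The families differed in their medians, which with 7 arrays were 0.22 for Mmp (6 genes), 0.18 for Adam (9 genes), -0.22 for Adamts (7 genes) and -0.36 for Timp (4 genes). With 9 arrays the same medians were 0.10, 0.10, -0.13 and -0.20. The Mmp median counts Mmp9, which is above the floor only through its high arrays, as does the median of all 26. With 7 arrays the other Mmp differences were 0.97 for Mmp14, 0.49 for Mmp3, -0.05 for Mmp2, -0.11 for Mmp23 and -1.24 for Mmp17. The positive sign of the Mmp median with 7 arrays thus rests on Mmp9. In every family members read both higher and lower in BMAL-/-, as the plot of all differences shows.

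**Figure D1:**
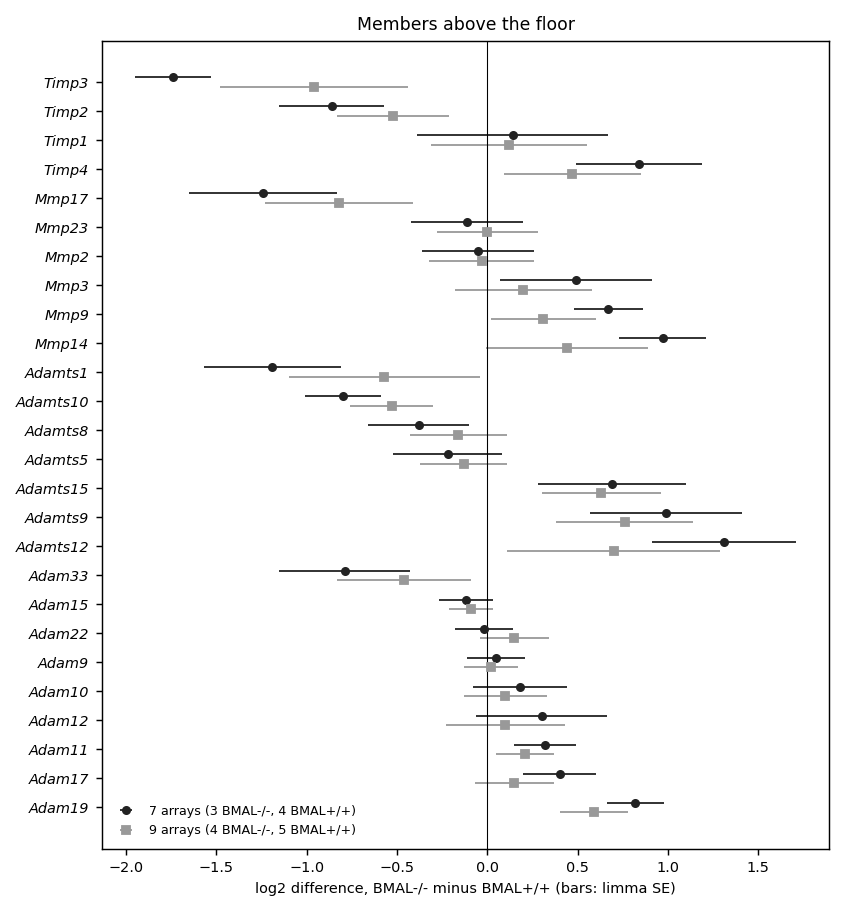
Difference in log2 expression, BMAL-/- minus BMAL+/+, of the 26 members above the floor (points, with limma's standard error as bars), for 7 arrays without F04 and F05 and for all 9 arrays as labelled. Differences with 7 arrays run between -1.74 for Timp3 and 1.31 for Adamts12, and none passed at an adjusted p of 0.05.

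Among the inhibitors, Timp3 was the member with the most negative difference. Timp3 stays bound to the extracellular matrix and inhibits Adam17 as well as matrix metalloproteinases. The arrays labelled BMAL-/- read 8.91 (F02), 8.81 (F03), 10.95 (F05) and 9.57 (F08). Those labelled BMAL+/+ read 10.80 (F01), 9.23 (F04), 11 (F07), 10.71 (F09) and 10.86 (F10). F05 lay among the BMAL+/+ values and F04 among the BMAL-/- values, so the labelled groups overlapped, whereas the 7 other arrays separated without overlap. With 7 arrays the means were 9.10 ± 0.41 in BMAL-/- (SD, n = 3) and 10.84 ± 0.12 in BMAL+/+ (SD, n = 4), a level 3.35-fold lower in BMAL-/-. This difference of -1.74 ± 0.21 (SE) had a limma adjusted p of 0.161 and a two-sided exact permutation p of 0.0286, the smallest that 7 arrays can give. With all 9 arrays the means were 9.56 ± 0.99 in BMAL-/- (SD, n = 4) and 10.52 ± 0.73 in BMAL+/+ (SD, n = 5), and the difference of -0.96 ± 0.52 had an adjusted p of 0.37. Its other 3 probe sets above the floor had differences of -1.48, -1.60 and -1.05 with 7 arrays, each in the same direction. Leaving out F08 as well brought the adjusted p of Timp3 to 0.00751, at a difference of -1.98.

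Timp2, which inhibits Mmp2 and also takes part in the activation of its proform by Mmp14, read 10.69, 10.44, 11.96 and 11.58 on F02, F03, F05 and F08 of BMAL-/-. On F01, F04, F07, F09 and F10 of BMAL+/+ it read 11.64, 11.41, 12.03, 11.86 and 11.50. F02 and F03 were the low arrays, while F08 lay within the BMAL+/+ range. The difference was -0.86 ± 0.29 with 7 arrays (adjusted p = 0.208) and -0.52 ± 0.31 with 9 arrays (adjusted p = 0.383). All 4 of its other probe sets above the floor had negative differences with 7 arrays, of -2.83, -0.51, -1.65 and -0.63, as the plot of all probe sets of both inhibitors shows. The probe set with the -2.83 read 2.55 on F02, which is at the floor, so its size depends on the floor.

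**Figure D2:**
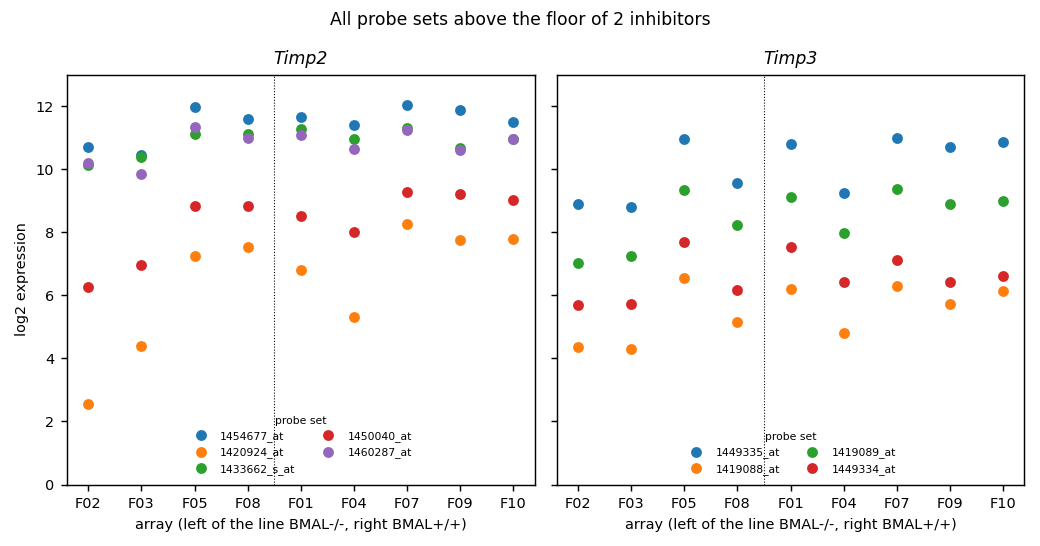
Log2 expression of every probe set above the floor of Timp2 (5 probe sets) and Timp3 (4 probe sets) on each array, BMAL-/- arrays left of the dotted line and BMAL+/+ arrays right of it. Most probe sets of a gene share their low arrays, F02 and F03 for Timp2 and F02, F03, F08 and F04 for Timp3, while F05 lies with the BMAL+/+ arrays.

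Timp4, an inhibitor abundant in heart and fat, pointed the other way. It read 9.92, 10.52, 9.47 and 9.31 on F02, F03, F05 and F08 of BMAL-/-, against 9.49, 10.35, 9.16, 9.18 and 8.47 on F01, F04, F07, F09 and F10 of BMAL+/+. F02, F03 and F04 were the high arrays, and F08 fell within the BMAL+/+ range. The difference was 0.84 ± 0.35 with 7 arrays (adjusted p = 0.208), and its other probe set above the floor had a difference of -0.21, so its probe sets disagree in direction. Timp1, an inhibitor induced by growth factors and cytokines, read 4.57, 4.33, 5.25 and 5.67 in BMAL-/- and 4.15, 5.31, 4.87, 5.84 and 4.0 in BMAL+/+, in the same order of arrays. The groups overlapped over almost their whole range, and the difference was 0.14 ± 0.53 with 7 arrays (adjusted p = 0.869).

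**Figure D3:**
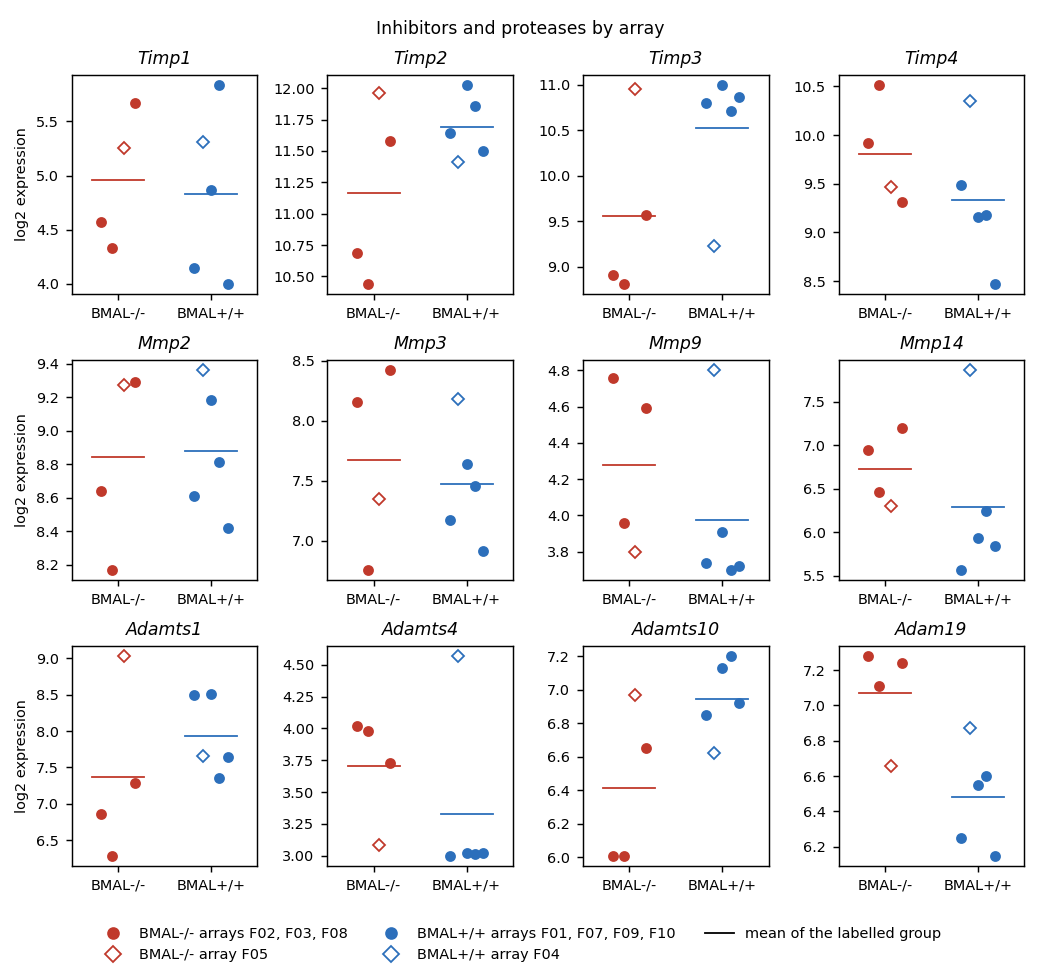
Log2 expression of the 4 inhibitors and of 8 proteases on each array, BMAL-/- left and BMAL+/+ right in each panel, with open diamonds for F05 and F04 and a line at the mean of the labelled group (n = 4 and n = 5). Each panel has its own scale that does not start at 0. In Timp3 the diamond of F05 sits among the BMAL+/+ arrays and that of F04 among the BMAL-/- arrays.

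Of the matrix metalloproteinases, Mmp14 had the most positive difference. It is a membrane-anchored collagenase that activates the proform of Mmp2. Mmp14 read 6.94, 6.46, 6.30 and 7.20 on F02, F03, F05 and F08 of BMAL-/-. In BMAL+/+ it read 5.57, 7.86, 5.93, 6.24 and 5.84 on F01, F04, F07, F09 and F10. F04 held the highest value of all 9 arrays, and without F04 every BMAL-/- array exceeded every BMAL+/+ array. The difference was 0.97 ± 0.24 with 7 arrays (adjusted p = 0.208, exact permutation p = 0.0286) and 0.44 ± 0.45 with 9 arrays (adjusted p = 0.583).

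Its substrate Mmp2, a gelatinase made by smooth muscle cells and fibroblasts, showed no such separation. Mmp2 read 8.64, 8.17, 9.27 and 9.29 in BMAL-/- and 8.61, 9.36, 9.18, 8.81 and 8.42 in BMAL+/+, in the same order of arrays. The difference was -0.05 ± 0.31 with 7 arrays (adjusted p = 0.918). Mmp9, the gelatinase of neutrophils and macrophages, lay close to the floor. It read 4.76, 3.96, 3.80 and 4.59 in BMAL-/- and 3.74, 4.80, 3.91, 3.70 and 3.72 in BMAL+/+. F02, F08 and F04 stood above the others, which all lay under 4, so no fold is given. Mmp9 is above the floor only through F02, F08 and F04, so with F04 left out a difference was bound to appear. With 7 arrays it was 0.67 ± 0.19 (limma adjusted p = 0.208, exact permutation p = 0.0286), which is not read as a measure of change. F03 at 3.96 lay just above the 3.91 of F07.

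Mmp17, a membrane protease held by a lipid anchor and expressed in vascular smooth muscle, was lower. It read 5.02, 4.36, 6.18 and 6.09 on F02, F03, F05 and F08 of BMAL-/-, against 6.66, 5.58, 6.68, 6.09 and 6.16 in BMAL+/+. F02 and F03 were the lowest, and F08 read 6.09, as did F09. The difference was -1.24 ± 0.41 with 7 arrays (adjusted p = 0.208) and -0.82 ± 0.41 with 9 arrays (adjusted p = 0.37).

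Mmp3, or stromelysin-1, which cuts proteoglycans and activates other proforms, read 8.16, 6.76, 7.35 and 8.42 in BMAL-/- and 7.17, 8.18, 7.64, 7.46 and 6.92 in BMAL+/+. F02, F08 and F04 were high, but F03 was the lowest array of all 9, and the difference of 0.49 ± 0.42 with 7 arrays had an adjusted p of 0.444. Mmp23, a small membrane protease, read 8.23, 7.75, 8.81 and 8.51 in BMAL-/- and 8.80, 8.53, 8.46, 7.65 and 8.22 in BMAL+/+. Its difference was -0.11 ± 0.31 with 7 arrays (adjusted p = 0.818). Its other probe set gave -1.10, so the size differs between its probe sets.

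Among the Adamts proteases, the proteoglycan-cutting enzymes did not share a direction. Adamts1, which cuts versican and is induced by inflammation, read 6.86, 6.29, 9.03 and 7.29 on F02, F03, F05 and F08 of BMAL-/-. On F01, F04, F07, F09 and F10 of BMAL+/+ it read 8.49, 7.66, 8.51, 7.36 and 7.64. F05 was the highest array of all 9, and the 3 other BMAL-/- arrays were the lowest, with F08 at 7.29 just under F09 at 7.36. The difference was -1.19 ± 0.38 with 7 arrays (adjusted p = 0.208, exact permutation p = 0.0571) and -0.57 ± 0.53 with 9 arrays (adjusted p = 0.544).

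Adamts4, an aggrecanase that also cuts versican, was below the floor on average and is the member with the smallest adjusted p with 7 arrays. It read 4.02, 3.98, 3.08 and 3.73 on F02, F03, F05 and F08 of BMAL-/-, against 3.0, 4.57, 3.02, 3.01 and 3.02 on F01, F04, F07, F09 and F10 of BMAL+/+. F04 was the highest array and F05 lay with the BMAL+/+ arrays. The 4 other BMAL+/+ arrays were at the floor, between 3.0 and 3.02, so neither a fold nor a size of the difference is given. The adjusted p was 0.0858 with 7 arrays, 0.0172 with 7 arrays centred on 1 median, and 0.55 with 9 arrays. The limma p with 7 arrays uses the compressed spread of values at the floor and is not read as a measure of change. The two-sided exact permutation p was 0.0286 with 7 arrays, the smallest they can give, and 0.405 with 9 arrays.

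Adamts5, the other main aggrecanase, showed little difference. It read 6.51, 6.68, 7.12 and 7.69 in BMAL-/- and 7.14, 6.96, 7.37, 7.15 and 7.05 in BMAL+/+, with F08 the highest array and F02 and F03 the lowest. The difference was -0.22 ± 0.30 with 7 arrays (adjusted p = 0.631). Its other 2 probe sets gave 0.05 and 0.27, both against the direction of the brightest.

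Adamts9 and Adamts15 are further proteoglycan-cutting members, and both read higher on average in BMAL-/-. Adamts9 read 7.71, 7.56, 7.42 and 7.48 in BMAL-/- and 7.41, 7.56, 6.93, 5.57 and 6.47 in BMAL+/+. The BMAL-/- arrays lay close together, F09 was low, and the difference was 0.99 ± 0.42 with 7 arrays (adjusted p = 0.208) and 0.76 ± 0.38 with 9 arrays (adjusted p = 0.37). For Adamts15 the values were 7.04, 6.28, 6.95 and 7.30 in BMAL-/- and 6.76, 6.54, 6.69, 5.41 and 5.87 in BMAL+/+. F09 and F10 were its low arrays, and the difference was 0.69 ± 0.41 with 7 arrays (adjusted p = 0.288).

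Adamts10, which binds fibrillin microfibrils of the vessel wall, was lower. It read 6.01, 6.01, 6.97 and 6.65 on F02, F03, F05 and F08 of BMAL-/-, against 6.85, 6.62, 7.13, 7.20 and 6.92 on F01, F04, F07, F09 and F10 of BMAL+/+. F02 and F03 were lowest, F04 was the lowest BMAL+/+ array, and F05 lay within the BMAL+/+ range. The difference was -0.80 ± 0.21 with 7 arrays (adjusted p = 0.208, exact permutation p = 0.0286) and -0.53 ± 0.23 with 9 arrays (adjusted p = 0.37, exact permutation p = 0.0794). Its other probe set above the floor gave -0.07 with 7 arrays, the same sign at a fraction of the size.

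Adamts12 was picked out after its values had been seen, because it had the most positive difference with 7 arrays and the widest range over all 9 arrays of any member. It read 5.40, 5.67, 5.25 and 6.16 in BMAL-/- and 4.53, 6.87, 5.24, 4.41 and 3.53 in BMAL+/+. F04 was the highest array and F10 the lowest. The difference was 1.31 ± 0.40 with 7 arrays, 2.49-fold higher in BMAL-/- (adjusted p = 0.208, exact permutation p = 0.0571). F10 read 3.53, under the limit of 4, so the fold rests in part on a value near background. With 9 arrays the difference was 0.70 ± 0.59 (adjusted p = 0.503), and there Adamts9 had the most positive difference.

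The sheddases of the Adam family were among the steadier members. Adam10, which releases the ectodomains of Notch receptors and cadherins, read 10.39, 10.13, 10.24 and 9.81 on F02, F03, F05 and F08 of BMAL-/-, against 10.28, 10.50, 10.13, 9.37 and 9.94 on F01, F04, F07, F09 and F10 of BMAL+/+. Its groups overlapped and the difference was 0.18 ± 0.26 with 7 arrays (adjusted p = 0.646). The other probe set of Adam10 above the floor gave -0.23, with groups that did not overlap, so its probe sets disagree in direction. Adam9, a further membrane protease, varied between 9.64 and 9.91 in BMAL-/- and between 9.43 and 10.07 in BMAL+/+, with a difference of 0.05 ± 0.16 with 7 arrays (adjusted p = 0.842).

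Adam17, the protease that releases tumour necrosis factor, read 8.28, 7.85, 7.41 and 7.77 in BMAL-/- and 7.76, 8.13, 7.61, 7.26 and 7.64 in BMAL+/+. The lowest of the 3 BMAL-/- arrays other than F05 was F08 at 7.77, and the highest of the 4 BMAL+/+ arrays other than F04 was F01 at 7.76. The difference was 0.40 ± 0.20 with 7 arrays (adjusted p = 0.224) and its other probe set gave 0.28.

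Adam19, a protease that cuts neuregulin and is needed for heart valve development in mice, separated more clearly. It read 7.28, 7.11, 6.66 and 7.24 on F02, F03, F05 and F08 of BMAL-/-. Readings in BMAL+/+ were 6.25, 6.87, 6.55, 6.60 and 6.15 on F01, F04, F07, F09 and F10. F02, F03 and F08 were the highest arrays, F04 followed, and F05 lay near the upper BMAL+/+ values. The difference was 0.82 ± 0.16 with 7 arrays (adjusted p = 0.208, exact permutation p = 0.0286) and 0.59 ± 0.19 with 9 arrays (adjusted p = 0.37, exact permutation p = 0.0397).

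Adam33, a protease of smooth muscle and fibroblasts, was also picked out after its values had been seen. It read 5.45, 4.83, 6.64 and 5.98 in BMAL-/- and 6.38, 6.08, 6.69, 5.52 and 6.23 in BMAL+/+. The difference was -0.79 ± 0.36 with 7 arrays (adjusted p = 0.214), and its other probe set gave -0.97. The remaining 5 members above the floor, Adam11, Adam12, Adam15, Adam22 and Adamts8, had differences between -0.38 and 0.32 with 7 arrays.

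In groups that do not overlap, the count depends on the labels. With 9 arrays 0 of the 26 members separated in either direction, where 0.196% of all genes above the floor were higher throughout in BMAL-/- and 0.278% lower throughout. With 7 arrays 6 members were higher throughout (Adam17, Adam19, Adamts12, Adamts9, Mmp14 and Mmp9), or 23.1% against a background of 7.15%. Without Mmp9, which is above the floor only through its high arrays, this was 5 of 25, or 20%. In the opposite direction 3 members were lower throughout (Adamts1, Adamts10 and Timp3), or 11.5% against a background of 5.66%.

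Both arrays left out can be read against the means of the 7 others. F04, labelled BMAL+/+, was nearer to the BMAL-/- mean in 18 of the 26 members, or 69.2%, where the share over all 9699 genes was 68.3%. F05, labelled BMAL-/-, was nearer to the BMAL-/- mean in 7 members, or 26.9%, against 43.9% of all genes. Among the 10 members with an unadjusted p under 0.05 with 7 arrays, F04 was nearer to the BMAL-/- mean in 8 and F05 in 1, or 80.0% and 10.0%, against 84.0% and 18.2% of 1459 genes chosen likewise. Mmp9 is counted in both the 26 and the 10. Its high value on F04 helped it pass the floor, so for Mmp9 the side of F04 follows in part from the filter.

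Below the floor the members followed the whole array. With 9 arrays 5 of 39 members had an unadjusted p under 0.05 and were higher in BMAL-/-, or 12.8% against a background of 13.1%, and 0 were lower, against 0.2%. With 7 arrays 13 were higher, or 33.3% against 30.2%, and 0 were lower, against 0.436%. Of all 8494 genes below the floor, 86.1% read higher in BMAL-/- with 7 arrays and 84.2% with 9 arrays. The median member difference there was 0.05 with 7 arrays, as over all genes below the floor.

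Cell type markers also varied between the arrays. In bulk tissue, fewer cells of a type and less RNA per cell cannot be told apart. The mean of 6 smooth muscle markers, all above the floor, was between 10.69 and 12.20 on the arrays labelled BMAL-/- and between 11.34 and 12.45 on those labelled BMAL+/+, so the defining markers of the vessel wall were present on every array. F02 and F03 had the lowest means, 10.90 and 10.69, and F08 had 12.08. The mean of 6 fibroblast markers, all above the floor, ranged between 8.43 and 10.28 in BMAL-/- and between 9.22 and 10.50 in BMAL+/+. For 7 macrophage markers, of which Cd68 was below the floor on average, the mean ranged between 5.75 and 7.24 in BMAL-/- and between 6.42 and 8.08 in BMAL+/+. The mean of 6 endothelial markers, with Tie1 below the floor, spanned 5.57 to 6.02 in BMAL-/- and 6.00 to 6.37 in BMAL+/+. Without F04 and F05 the fibroblast and macrophage means separated without overlap. The fibroblast mean was then between 8.43 and 9.83 in BMAL-/- and between 9.93 and 10.50 in BMAL+/+, and the macrophage mean between 5.75 and 6.39 in BMAL-/- and between 6.81 and 8.08 in BMAL+/+. The smooth muscle mean was between 10.69 and 12.08 in BMAL-/- and between 12.08 and 12.45 in BMAL+/+. These 3 lists were thus lower on average on the same arrays as the members that read lower in BMAL-/-. Single markers differed within the lists. With 7 arrays the fibroblast markers Dcn, Dpt, Pi16 and Lum had differences of -1.17, -1.89, -2.74 and -1.60. Col1a1 went the other way at 0.64, and Pdgfra was at 0.07. Of the smooth muscle markers Acta2 was at -0.14, and the others lay between -1.27 and -0.86. The endothelial markers did not share a direction. Pecam1, Tie1, Esam and Tek were at -1.94, -0.97, -0.47 and -0.32, and Kdr and Cdh5 at 0.98 and 0.49. All 6 neutrophil markers were below the floor, with list means between 2.55 and 2.91 in BMAL-/- and between 2.49 and 3.15 in BMAL+/+.

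The lowest smooth muscle and fibroblast means fall on F02 and F03, where Timp2 and Timp3 were also low, and then on F04, where Timp3 was low. The part of these markers in the differences of Timp2, Timp3, Mmp17, Adamts1, Adamts10 and Adam33 was not tested. Markers of tissue beside the vessel wall were measured too. The mean of 4 brown fat markers was between 10.73 and 11.88 in BMAL-/- and between 10.76 and 13.29 in BMAL+/+. For 3 adipocyte markers it was between 10.05 and 10.87 in BMAL-/- and between 10.14 and 10.74 in BMAL+/+. The mean of 5 heart muscle markers was between 5.58 and 9.68 in BMAL-/- and between 6.12 and 10.63 in BMAL+/+. Its lowest arrays were F02, F04 at 6.12 and F08 at 6.99. The mean of 6 skeletal muscle markers was between 6.24 and 10.70 in BMAL-/- and between 3.45 and 10.53 in BMAL+/+, the lowest being F01. Their part in the members' values was not tested.

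**Figure D4:**
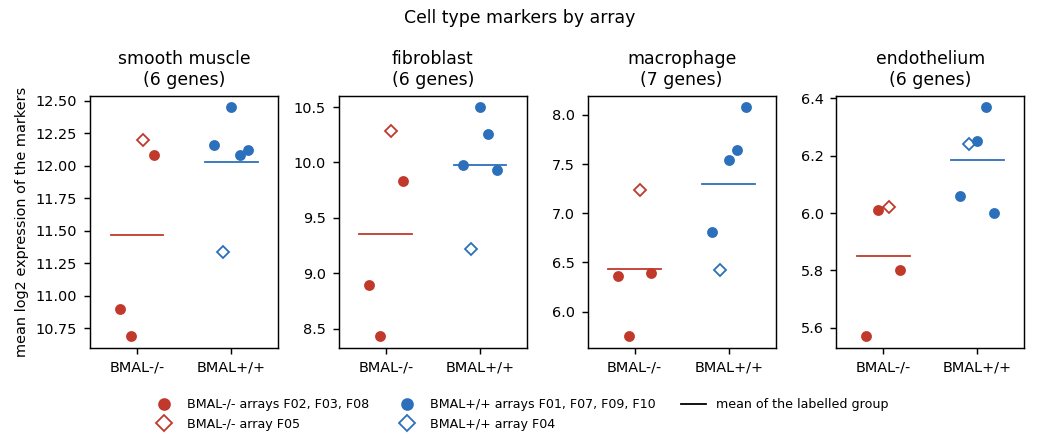
Mean log2 expression of the markers of 4 cell types on each array, BMAL-/- left and BMAL+/+ right, with open diamonds for F05 and F04 and a line at the mean of the labelled group (n = 4 and n = 5). Smooth muscle means of F02, F03 and F04 are the lowest, at 10.90, 10.69 and 11.34, and the axes do not start at 0.

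Genes that activate, inhibit or carry metalloproteinases were read from a separate list of 34, of which 22 were above the floor. None passed at an adjusted p of 0.05. Their median difference was -0.50 with 7 arrays and -0.23 with 9 arrays, against 0.02 and 0.01 over all genes above the floor, and 6 were positive and 16 negative in each. With 7 arrays 7 of the 22 had an unadjusted p under 0.05 and were lower, or 31.8% against 7.37% of all genes above the floor, and 0 were higher, against 7.67%. They were Lrp1, the receptor that clears protease and inhibitor complexes, at -1.33, the proprotein convertase Pcsk6 at -1.10, Rhbdf1, which escorts Adam17, at -0.60, Tspan5, which partners Adam10, at -0.64, the Adamts-like proteins Adamtsl4 and Adamtsl5 at -0.94 and -1.47, and Pcolce2, an enhancer of procollagen processing, at -2.10. Tspan5 read 4.02, 3.92 and 3.90 on F02, F03 and F08, so it is above the floor only through the other arrays, where it was higher. Its place in this count thus follows in part from the floor. With 9 arrays 0 of the 22 had an unadjusted p under 0.05 in limma, where 0.784% of all genes above the floor were higher and 1.2% lower. Smooth muscle and fibroblast marker means were lowest on F02 and F03, and their part in these values was not tested.

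Of 21 matrix substrates above the floor, 1 was higher (4.76%) and 6 were lower (28.6%) with 7 arrays at an unadjusted p under 0.05, against 7.67% and 7.37% of all genes above the floor, and the median difference was -0.14. With 9 arrays 0 were higher and 1 was lower (4.76%), against 0.784% and 1.2% of all genes above the floor. The median was then -0.08, against 0.01 over all genes above the floor. Dcn, Lum and Col1a1 are also on the fibroblast marker list, and Dcn and Lum are among the 6 lower substrates, so these 2 lists are not independent. The matrix list too was read on arrays whose smooth muscle and fibroblast markers varied, and their part was not tested. Of 18 membrane proteins shed by Adam proteases, 1 was higher (5.56%) and 2 were lower (11.1%) with 7 arrays, shares near those of all genes, with a median of 0.01. With 9 arrays 0 were higher and 0 lower in limma at an unadjusted p under 0.05, against 0.784% and 1.2% of all genes above the floor. None of either list passed at an adjusted p of 0.05.

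Promoter sequence could be read for 37 of the 65 members from RefSeq windows of assembly GRCm38.p6, each running from 250 bases before to 50 after an annotated start. The E-box CACGTG, the sequence that BMAL binds with its partner CLOCK, was found in 4 of 37 members, or 10.8%, against 8.09% of 27025 genes with a window. The AP-1 element TGANTCA, long known in collagenase and stromelysin promoters, was found in 11 of 37, or 29.7%, against 8.97% of genes. Each motif reads the same on both strands. The 8 Mmp genes with the element all lie in the protease cluster on chromosome 9, with the element 35 to 95 bases before the start, and 1 of them, Mmp3, was above the floor. The stretches are shown because they set the expressed stromelysin beside its neighbours below the floor, related genes that are not independent of each other in the count. The capitals mark the AP-1 element, with 15 bases on each side in the direction of transcription.
Mmp3, chr9:7445761-7445797 (plus strand): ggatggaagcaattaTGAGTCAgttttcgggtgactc
Mmp13, chr9:7272464-7272500 (plus strand): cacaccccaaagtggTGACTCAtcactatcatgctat
Mmp12, chr9:7347315-7347351 (plus strand): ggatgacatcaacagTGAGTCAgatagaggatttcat
Mmp1b, chr9:7388098-7388134 (minus strand): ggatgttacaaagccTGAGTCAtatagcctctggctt
Mmp1a, chr9:7464053-7464089 (plus strand): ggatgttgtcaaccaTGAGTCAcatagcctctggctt
Mmp10, chr9:7502264-7502300 (plus strand): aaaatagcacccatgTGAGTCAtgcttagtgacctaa
Mmp20, chr9:7628121-7628157 (plus strand): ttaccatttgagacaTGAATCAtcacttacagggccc
Mmp7, chr9:7692012-7692048 (plus strand): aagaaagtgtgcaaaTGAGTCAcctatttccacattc
All 8 stretches carry the element because they were chosen for it, so its letters do not set Mmp3 apart from the 7 genes below the floor.

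E-box stretches of the Adam sheddases Adam10 and Adam19 are shown because both genes were expressed and because Adam19 read higher in BMAL-/- without passing the test. Capitals mark the E-box, and the position is counted from the annotated start.
Adam10, chr9:70678903-70678938 (plus strand): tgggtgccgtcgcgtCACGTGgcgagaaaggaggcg
Adam19, chr11:46054357-46054392 (plus strand): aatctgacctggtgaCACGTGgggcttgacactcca
The E-box lay 64 bases before the start in Adam10 and 130 bases before an annotated start in Adam19. Adam19 has windows at other annotated starts too, and none of those held an E-box. A match of letters is a description of the window only. No window of a Timp gene (4 genes) or an Adamts gene (6 genes) held either motif.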

How the data were processed

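Aortic RNA of 9 samples was measured on Affymetrix mouse arrays. The authors deposited log2 expression values for 45101 probe sets. GCRMA and MAS5 appear in the submitters' processing notes with neither a role nor a version, so which of them made the values is not known here. The values were used as deposited. After removal of 64 control probe sets, 45037 were tested. Of these, 34945 are paired with 1 gene in the platform annotation, 932 with more than 1, and 9160 are missing from it. Symbols of 34741 were updated to RefSeq names (GRCm38.p6). Labels gave the groups, and depth is limited by the number of arrays.

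Genotype alone was modelled by limma (version 3.58.1, R 4.3.3) using lmFit and a trended eBayes with 1.76 prior degrees of freedom, two-sided, with Benjamini-Hochberg adjustment over all 45037 probe sets and a threshold of 0.05. The two-sided exact permutation test can give no p under 0.00794 with 9 arrays or 0.0286 with 7. Scripts were tested on simulated data.

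The members and lists were chosen with earlier results of these data known. Named members are all Timp genes, the main vessel-wall enzymes (Mmp2, Mmp3, Mmp9, Mmp14, Adamts1, Adamts4, Adamts5, Adam10, Adam17), the 10 brightest, and the 5 above the floor with the smallest p in each comparison, apart from Adamts12 and Adam33. Alternatives were quantile normalization, centring, eBayes without a trend, array weights, a filter at the median, a one-way ANOVA, averaging over all probe sets of a gene, other floors (3.5 and 5), moving F01 to BMAL-/-, and leaving out 1 array at a time. A total of 5 probe sets that members share with other genes were left out. Plots were drawn with matplotlib 3.10.9.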

Additional observations from a re-analysis of the deposited data

Results flagged for a closer look

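Within BMAL+/+, array F04 stood far from the other 4 arrays in 3 members. F04 read 4.57 for Adamts4, where the others read 3.0 to 3.02. It read 4.80 for Mmp9, where the others read 3.70 to 3.91, and 9.23 for Timp3, where the others read 10.71 to 11. In Adamts4 and Timp3 F04 lay on the side of the arrays F02, F03 and F08 of BMAL-/-. In Mmp9 F04 lay with F02 at 4.76 and F08 at 4.59, while F03 read 3.96, near the other BMAL+/+ arrays. A total of 44 groups were examined in this way, and chance flags about 1 group in 20.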

How the results depend on the processing

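With 9 arrays, 0 members had an adjusted p under 0.05 under each alternative run. Counts over all 65 members pool those above and below the floor, and the share of all genes follows each in parentheses. On leaving out an array, counts and shares are each given as a range, whose ends need not come from the same array. With an unadjusted p under 0.05 there were 7 members (7.25%), which became 1 with quantile normalization (3.46%), 2 with centred arrays (2.29%), 4 without a trend (4.44%), 15 with array weights (23.6%), 2 above the median brightness (2.21%), 3 with F01 in BMAL-/- (2.01%) and 2 to 19 on leaving out an array (1.79% to 23.0%). With 7 arrays, 0 members had an adjusted p under 0.05, against 1 with centred arrays (0.022%), 30 with array weights (30.2%), 1 above the median brightness (0.0358%) and 0 to 31 on leaving out an array (0.011% to 31.3%), the 31 being without F08. The 23 members with an unadjusted p under 0.05 (22.3%) became 15 with quantile normalization (13.7%), 13 with centred arrays (10.8%), 41 with array weights (43.0%), 12 above the median brightness (14.6%), 7 with F01 in BMAL-/- (9.95%) and 8 to 39 on leaving out an array (6.28% to 41.2%). The median difference of members above the floor was -0.02 to 0.19 on leaving out an array with 9 arrays and -0.04 to 0.13 with 7 arrays, so its sign rests on single arrays. The cause was not tested.

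Differences of 10 named members changed sign. With 9 arrays these were Adam10 with the mean of its probe sets (-0.03), Adam9 with centred arrays (-0.02), Adamts5 with the mean of its probe sets (0.05) and Mmp2 and Mmp23 with quantile normalization (0.02 and 0.04). Array weights gave -0.13 for Adam17, 0.01 for Adam33, 0.46 for Adamts1, 0.25 for Mmp2, 0.33 for Mmp23 and -0.00 for Mmp3. F01 in BMAL-/- gave 0.21 for Mmp23 and -0.21 for Timp1. On leaving out an array, ranges were -0.07 to 0.21 for Adam10, -0.00 to 0.29 for Adam17, -0.07 to 0.09 for Adam9, -0.36 to 0.03 for Adamts5, -0.18 to 0.19 for Mmp2, -0.17 to 0.19 for Mmp23, -0.05 to 0.51 for Mmp3 and -0.12 to 0.37 for Timp1. With 7 arrays the mean of probe sets gave -0.02 for Adam10 and 0.07 for Adamts5, centred arrays -0.00 for Adam9, array weights -0.02 for Adam9 and -0.13 for Timp1, quantile normalization 0.03 for Mmp2, and F01 in BMAL-/- 0.21 for Mmp23 and -0.23 for Timp1. On leaving out an array there, ranges were -0.01 to 0.33 for Adam10, -0.04 to 0.11 for Adam9, -0.58 to 0.01 for Adamts5, -0.35 to 0.21 for Mmp2, -0.33 to 0.09 for Mmp23 and -0.27 to 0.52 for Timp1. Timp2, Timp3, Timp4, Mmp9, Mmp14, Mmp17, Adamts4, Adamts10 and Adam19 kept their direction in both comparisons under each alternative run.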
